A study of Arabidopsis thaliana with 70 samples.

Results

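The pipecolic acid branch of systemic resistance, the EDS1 family and the NPR genes were followed across 14 groups of Arabidopsis thaliana RNA libraries. The rule was a list of 10 gene identifiers out of the 33597 genes in the deposited table, and all 10 were found. They are ALD1 (AT2G13810), SARD4 (AT5G52810), FMO1 (AT1G19250), UGT76B1 (AT3G11340), EDS1 (AT3G48090), PAD4 (AT3G52430), SAG101 (AT5G14930), NPR1 (AT1G64280), NPR3 (AT5G45110) and NPR4 (AT4G19660). The name SARD4 comes from the list, and the other names are also in the annotation used.

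Systemic acquired resistance is the state in which leaves distant from an infection become more resistant. Its mobile signal is made from lysine: ALD1 and SARD4 build pipecolic acid, FMO1 hydroxylates it to N-hydroxypipecolic acid, and UGT76B1 attaches glucose to that product and to salicylic acid, which removes both from signalling. EDS1 forms complexes with PAD4 or with SAG101 that relay immune receptor signals, and the PAD4 complex promotes salicylic acid synthesis. NPR1, NPR3 and NPR4 bind salicylic acid in the nucleus, NPR1 as a co-activator of defence genes and NPR3 and NPR4 as co-repressors.

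RNA was sequenced from wild type (WT) and from rdd plants, in which ROS1, DML2 and DML3, 3 genes for DNA glycosylases that remove cytosine methylation, are mutated. The seedling set held 18 libraries of 10-day-old seedlings, 3 per genotype at 0, 1 and 3 h of 100 nM flg22, an immunogenic peptide of bacterial flagellin. The leaf set held 12 libraries of leaves from 4-week-old plants, 3 per genotype and treatment, inoculated by hand with water or with 100 nM flg22 and sampled at 24 h. The priming set held 8 libraries, 2 per group, of such leaves that were inoculated again at 24 h with Pst DC3000 hrcC, a Pseudomonas syringae strain unable to inject effectors, and were taken 1 h later. Seedlings treated with water for 1 or 3 h were not among the groups, so the effects of flg22 and of time cannot be told apart there. The labels do not say that the priming libraries came from separate plants, so their p-values measure the spread between those libraries, which may be technical. The 32 bisulfite libraries of the series were not analysed here.

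Values were read as FPKM, fragments per kilobase of gene scaled to the size of the library, which is an inference because the table names no unit. Comparing levels between genes rests on that reading, and the sequencing depth behind them is unknown. In bulk tissue, fewer cells that express a gene and less RNA per cell cannot be told apart. A root marker list of 5 genes summed to 648 to 1790 FPKM in seedlings and to at most 0.18 FPKM in leaves, and a list of 5 photosynthesis genes of the leaf mesophyll summed to between 6325 and 46959 FPKM over all 38 libraries. By limma, DML3 RNA was called lower in flg22-treated rdd leaves (0.34 against 2.83 FPKM, log2 change -1.50, adjusted p = 0.017). ROS1 RNA was called higher in rdd in both priming conditions (1.15 and 1.03, adjusted p = 0.017 and 0.016), and DML2 was called in none of the 7 conditions. These genes were listed with DME, and only 3 of the 4 passed the filter in seedlings and in the priming set. A gene without a call there may therefore not have been tested. The DML3 call was lost in 5 of 6 fits with 1 library left out and without the leaf libraries numbered 3 (adjusted p = 0.058), and those of ROS1 in 4 of 4 and 3 of 4. RNA levels of a mutated gene do not check the genotype where the lesion leaves a transcript, so they were not used to check these labels.

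Some libraries stood apart. In the leaf set the libraries numbered 3 of all 4 groups carried 0.073% to 0.098% of their FPKM in organelle genes, against 3.03% to 5.54% in numbers 1 and 2. The 8 priming libraries carried 0.082% to 0.117%, like the leaf libraries numbered 3, so this share does not say which leaf numbers are unusual. The leaf tests were also run without the libraries numbered 3, and each member's leaf response is given both ways. Replicate 2 of rdd seedlings at 3 h had 2.86% organelle FPKM, against at most 0.809% in the other seedlings, and the fewest genes above 0, at 18555. Without that library, rdd at 3 h had 3 called members against 0 h in place of 4 (NPR3 was lost) and 4 against 1 h, as with it.

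Differences are log2 changes of FPKM + 1 from limma, given with their standard errors, and a gene was called at an adjusted p under 0.05 over all genes tested in its set. Adding 1 understates the change of genes at low levels. ALD1, at 0.78 FPKM or less in every seedling library, fell below the filter there and was not tested, so 9 genes were tested in seedlings and 10 in each leaf set.

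**Figure D1:**
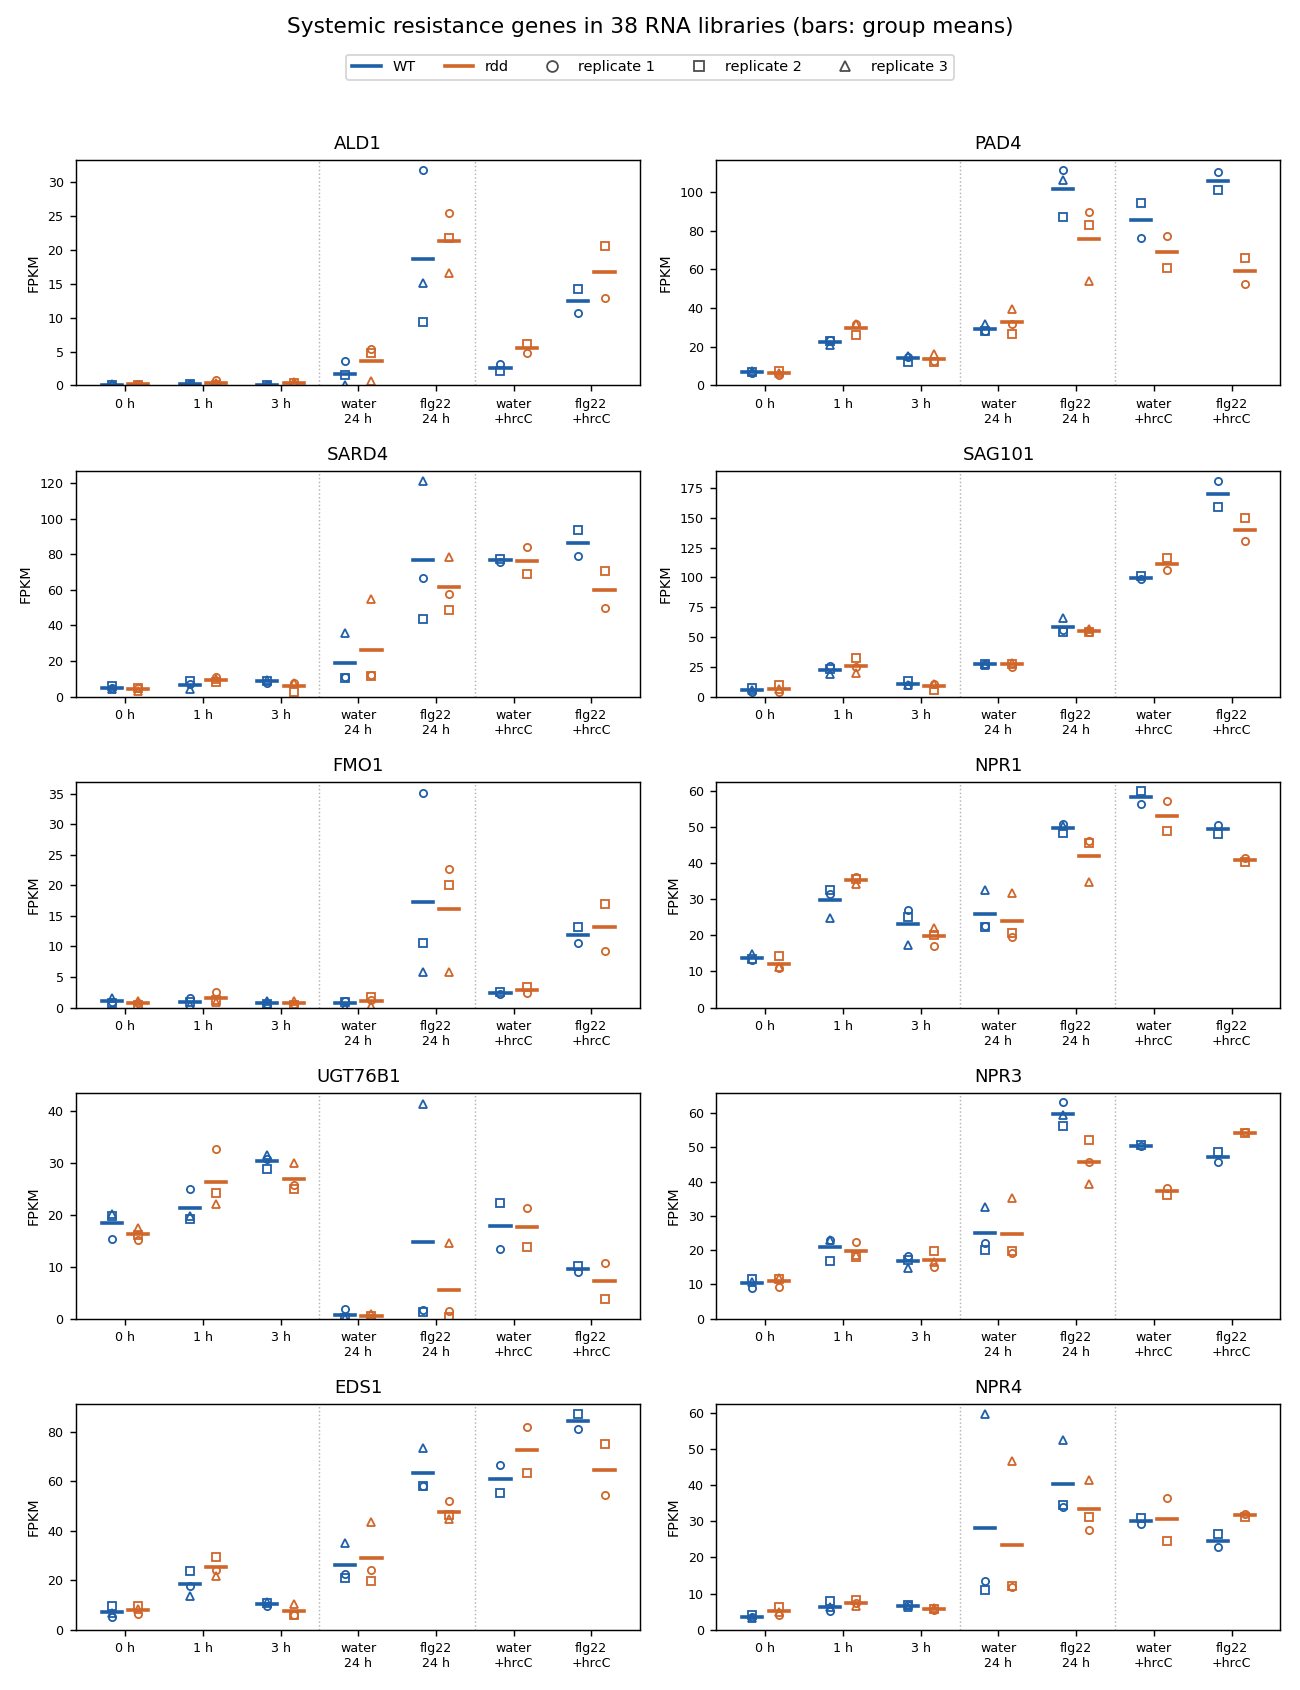
FPKM of the 10 genes (panels, linear axes from 0) in all 38 libraries, by condition along the horizontal axis; symbols mark the replicate number, horizontal bars the group means, blue WT and orange rdd. ALD1 and FMO1 are near 0 in seedlings and reach 31.7 and 35.2 FPKM in single flg22-treated WT leaf libraries, whereas UGT76B1 has its highest group mean, 30.3 FPKM, in WT seedlings at 3 h.

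In WT seedlings the EDS1 family and the NPR genes rose within 1 h of flg22. EDS1, PAD4, SAG101, NPR1, NPR3 and NPR4 were all called higher, by 0.67 to 1.84 on the log2 scale, and SARD4, FMO1 and UGT76B1 were not called. These 6 of 9 tested compare with 17.3% of all genes called in either direction (9.62% higher and 7.64% lower). The median change of the 9 was 0.94, against -0.08 over all genes tested.

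At 3 h against 0 h in WT, 6 of 9 were higher (18.9% of all genes were called, 12.1% higher and 6.81% lower): UGT76B1, PAD4, SAG101, NPR1, NPR3 and NPR4. Between 1 and 3 h UGT76B1 rose further and EDS1, PAD4 and SAG101 fell, 4 of 9 called (18.7% of all genes, 11.9% higher and 6.77% lower). PAD4 kept its call in all 6 fits that left out 1 library, but the count fell to 1 without WT 1 h replicate 2, WT 3 h replicate 1 or WT 3 h replicate 3, and to 2 without WT 1 h replicate 1 or WT 3 h replicate 2. Under median-ratio scaling, 46.9% of all genes called in this step were higher, against 63.8%, and the median over all genes moved from 0.13 to -0.01.

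In rdd seedlings 7 of 9 rose by 1 h, with 16.8% of all genes called (10.2% higher and 6.58% lower): SARD4, UGT76B1, EDS1, PAD4, SAG101, NPR1 and NPR3. At 3 h against 0 h UGT76B1, PAD4, NPR1 and NPR3 were higher, 4 of 9 (16.1% of all genes, 8.04% higher and 8.03% lower). A fit of those 2 groups alone called 1 of them. From 1 to 3 h EDS1, PAD4, SAG101 and NPR1 fell, 4 of 9 (11.4% of all genes, 4.16% higher and 7.26% lower). For 3 h against 0 h, median-ratio scaling put the higher share of all genes called at 62.5%, against 50.0%, with the median over all genes at -0.04 instead of -0.14.

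In WT leaves 24 h after flg22, ALD1, SARD4, FMO1, EDS1, PAD4, SAG101, NPR1 and NPR3 were higher than after water, 8 of 10 (23.1% of all genes were called, 14.8% higher and 8.3% lower), by 0.94 to 3.10 on the log2 scale. UGT76B1 and NPR4 were not called. The median of the 10 was 1.51, against 0.10 over all genes tested. Without the libraries numbered 3 there were 9 calls, NPR4 being added, where 49% of all genes were called.

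In rdd leaves 6 of 10 were higher after flg22 (16.5% of all genes, 12.8% higher and 3.72% lower): ALD1, FMO1, PAD4, SAG101, NPR1 and NPR3. SARD4 and EDS1 joined them when the replicate number was fitted as a block (adjusted p = 0.0038 and 0.016), and 9 of 10 were called without the libraries numbered 3, where 45.1% of all genes were called. The count fell to 2 without rdd flg22 replicate 1 or 2, and to 3 under median-ratio scaling. That scaling also moved the higher share of all genes called from 77.5% to 52.3% in rdd leaves and from 64.1% to 51.2% in WT leaves. The median over all genes moved from 0.18 to 0.00 and from 0.10 to -0.01, respectively. Over the 10 genes and both genotypes, flg22 was above water in 56 of 60 pairs of leaf libraries with the same number. The genes share those libraries, so the pairs are not replicates of the treatment. The corresponding share over all genes was not computed, and the count is not a result about the members.

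**Figure D2:**
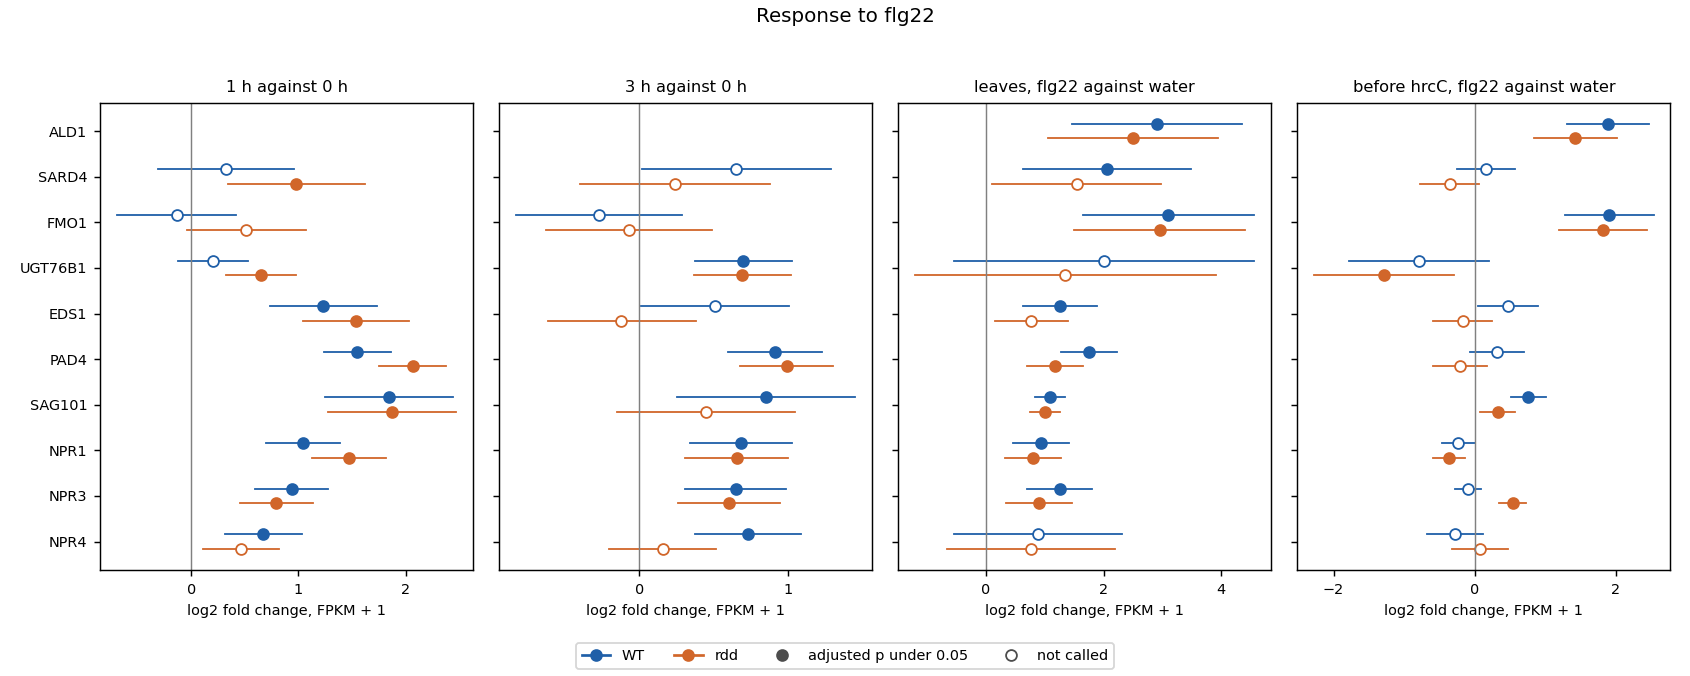
Log2 fold change of FPKM + 1 (horizontal axes) with 95% intervals for each gene (rows) in 4 flg22 comparisons (panels), WT in blue and rdd in orange; filled points passed an adjusted p of 0.05. ALD1 and FMO1 are filled in both leaf comparisons of both genotypes, and in seedlings EDS1, PAD4, SAG101, NPR1 and NPR3 are filled at 1 h in both.

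In leaves then given hrcC, flg22 pretreatment left ALD1 and FMO1 higher than water pretreatment in both genotypes. In WT, ALD1, FMO1 and SAG101 were higher, 3 of 10, where 45.4% of all genes were called (22.4% higher and 23% lower). In rdd, ALD1, FMO1, SAG101 and NPR3 were higher and UGT76B1 and NPR1 lower, 6 of 10, where 40.6% were called (22% higher and 18.6% lower). Against so large a background these counts are not a result about the members. In rdd the count fell to 3 without replicate 1 of the water group, and a fit of the compared groups alone gave 5 calls in WT and 3 in rdd.

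Markers of other cell types moved with the same comparisons. The 5 mesophyll genes summed to 41143 to 41697 FPKM in WT water leaves and to 15319 to 24895 FPKM after flg22, and to 18927 to 22226 against 7042 to 8740 FPKM in the WT priming groups. The 2 phloem companion cell markers summed to 408 to 425 FPKM in WT water leaves and to 526 to 601 FPKM after flg22. The 3 guard cell markers summed to 27.8 to 32.1 FPKM in WT water leaves, 17.7 to 26.7 after flg22 and 46.1 to 50.4 in rdd water leaves. Within seedlings the mesophyll sum was 26994 to 29238 FPKM at 0 h in WT and 17581 to 20977 at 3 h, and the root sum was 1167 to 1567 FPKM at 0 h and 648 to 834 at 3 h. Their part in the results was not tested.

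ALD1, the aminotransferase that starts pipecolic acid synthesis, was barely detected in seedlings. Its seedling values ran from 0 to 0.78 FPKM, the highest in rdd at 1 h. In WT leaves it read 3.61, 1.49 and 0.13 FPKM after water and 31.7, 9.38 and 15.0 FPKM after flg22 (replicates 1, 2 and 3). The groups did not overlap, and the lowest value in each genotype's water group came from the library numbered 3. The change was 2.90 ± 0.65 (SE; adjusted p = 0.011), and within the numbered pairs it was 2.83, 2.06 and 3.83. Without the libraries numbered 3 it was 2.44 (adjusted p = 0.013).

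In rdd leaves ALD1 read 5.31, 4.84 and 0.58 FPKM after water and 25.4, 21.7 and 16.6 FPKM after flg22. These groups did not overlap either, with a change of 2.501 ± 0.65 (adjusted p = 0.028). That call was lost without rdd water replicate 3 (adjusted p = 0.072) or rdd flg22 replicate 1 (0.090) or 2 (0.089), with a pseudocount of 0.1, and under median-ratio scaling. Leaving out all libraries numbered 3 gave 2.01 (adjusted p = 0.028). In the priming set ALD1 was 3.13 and 2.13 FPKM in WT after water and 10.7 and 14.2 after flg22, a change of 1.89 ± 0.25 (adjusted p = 0.00090). In rdd the corresponding values were 4.83 and 6.11 and then 12.8 and 20.6 FPKM, a change of 1.42 ± 0.25 (adjusted p = 0.0037). Every flg22-pretreated library lay above every water library of either genotype.

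SARD4 encodes the reductase that completes pipecolic acid, and unlike ALD1 it was present in every library. It ranged from 2.33 FPKM in rdd seedlings at 3 h to 121 FPKM in a WT leaf library after flg22. In WT leaves it read 11.02, 10.5 and 35.7 FPKM after water and 66.6, 43.3 and 121 after flg22. The groups did not overlap, and the library numbered 3 was highest in both. The change was 2.06 ± 0.64 (adjusted p = 0.043).

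This SARD4 call was lost without WT water replicate 1 (adjusted p = 0.13) or 2 (0.14), or WT flg22 replicate 1 (0.11) or 3 (0.12). Without all libraries numbered 3 the change was 2.22 (adjusted p = 0.00050). In rdd leaves the values were 12.1, 11.7 and 54.8 FPKM after water and 57.4, 48.4 and 78.3 after flg22. Here the groups overlapped, because the water library numbered 3 exceeded 1 flg22 library, and the change of 1.54 ± 0.64 was not called (adjusted p = 0.14). With the libraries numbered 3 left out it was 2.06 and called (adjusted p = 0.00079).

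SARD4 was already high in all leaves given hrcC. It read 75.7 and 77.5 FPKM in WT after water and 78.9 and 93.5 after flg22, and in rdd 83.8 and 68.8 and then 49.5 and 70.5 FPKM. Neither change was called (0.16 and -0.36; adjusted p = 0.48 and 0.15). In seedlings its 1 call in a rise was in rdd at 1 h, by 0.98 ± 0.30 (adjusted p = 0.032), from 4.91, 4.93 and 3.26 to 10.98, 8.0 and 9.64 FPKM. Leaving out rdd 0 h replicate 3 (adjusted p = 0.14), rdd 1 h replicate 1 (0.12) or rdd 1 h replicate 3 (0.084) ended the call, and the difference from the WT response (0.66 ± 0.43) was not called. SARD4 overlaps AT5G52800, which reached at most 5.71 FPKM in any library, and strandedness is not given in the sources used here, so reads of the pair cannot be told apart.

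FMO1, the monooxygenase that makes N-hydroxypipecolic acid, had the largest leaf response of the 10 genes in both genotypes. WT leaves read 1.1, 0.91 and 0.15 FPKM after water and 35.2, 10.6 and 5.89 after flg22. All flg22 values exceeded all water values, and in both treatments the library numbered 3 was lowest. The change was 3.10 ± 0.65 (adjusted p = 0.0080), and 3.36 (0.0027) without the libraries numbered 3.

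In rdd leaves FMO1 read 1.22, 1.78 and 0.19 FPKM after water and 22.6, 20.1 and 5.86 after flg22, a change of 2.95 ± 0.65 (adjusted p = 0.014). That call was lost without rdd flg22 replicate 1 (adjusted p = 0.058) or 2 (0.062), and the change without the libraries numbered 3 was 3.17 (0.0040). In the priming set FMO1 went from 2.27 and 2.56 FPKM to 10.6 and 13.2 in WT (1.91 ± 0.27; adjusted p = 0.0011) and from 2.35 and 3.44 to 9.29 and 16.9 in rdd (1.82 ± 0.27; adjusted p = 0.0017). No priming library of one pretreatment reached into the other. Seedlings stayed between 0.38 and 2.51 FPKM with no call at 1 or 3 h.

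UGT76B1, the glucosyltransferase that inactivates the signal, had its highest group means in seedlings, while its highest single value was 41.3 FPKM in a flg22-treated WT leaf library. Its 6 seedling group means lay between 16.2 and 30.3 FPKM. In leaves at 24 h after water the means were 0.73 ± 0.92 FPKM in WT and 0.47 ± 0.42 in rdd (SD, n = 3), and after water and hrcC, in the separate priming set, they were 17.9 ± 6.29 and 17.6 ± 5.32 FPKM (n = 2), within the range of the seedling means. WT seedlings read 15.3, 19.8 and 20.2 FPKM at 0 h, 24.9, 19.1 and 19.8 at 1 h and 30.7, 28.7 and 31.5 at 3 h. The 3 h values stood above all earlier ones. The change from 0 to 3 h was 0.70 ± 0.15 (adjusted p = 0.0036).

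From 1 to 3 h UGT76B1 rose by 0.50 ± 0.15 in WT (adjusted p = 0.032), a call lost without any 1 of WT 1 h replicates 2 and 3 and WT 3 h replicates 1, 2 and 3 (adjusted p = 0.061 to 0.11) and under median-ratio scaling. In rdd seedlings it read 15.1, 16.1 and 17.4 FPKM at 0 h, 32.5, 24.2 and 22.1 at 1 h and 25.8, 24.9 and 29.9 at 3 h. Both later groups lay above 0 h, with changes of 0.65 ± 0.15 (adjusted p = 0.0061) and 0.69 ± 0.15 (0.0051). The response at 1 h, called in rdd and not in WT, did not differ between genotypes by its own test (0.45 ± 0.22; adjusted p = 1.0).

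In leaves at 24 h UGT76B1 depended on the replicate number. WT read 1.79, 0.22 and 0.18 FPKM after water and 1.63, 1.34 and 41.3 after flg22, and rdd read 0.04, 0.48 and 0.88 and then 1.39, 0.29 and 14.6. Only the libraries numbered 3 were high after flg22. The changes of 2.01 ± 1.15 and 1.35 ± 1.15 were not called (adjusted p = 0.25 and 0.48), nor were the changes of 0.43 and 0.50 without the libraries numbered 3 (0.47 and 0.40). In the priming set it was 13.4 and 22.3 FPKM in WT after water and 8.98 and 10.2 after flg22, not called at -0.79 ± 0.42 (adjusted p = 0.16). In rdd it went from 21.4 and 13.8 to 10.6 and 3.81 FPKM, and fell by 1.28 (SE 0.42; adjusted p = 0.046). That call was lost with the replicate block, with a pseudocount of 0.1, and without rdd water replicate 1 (0.20) or 2 (0.056) or rdd flg22 replicate 2 (0.21).

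**Figure D3:**
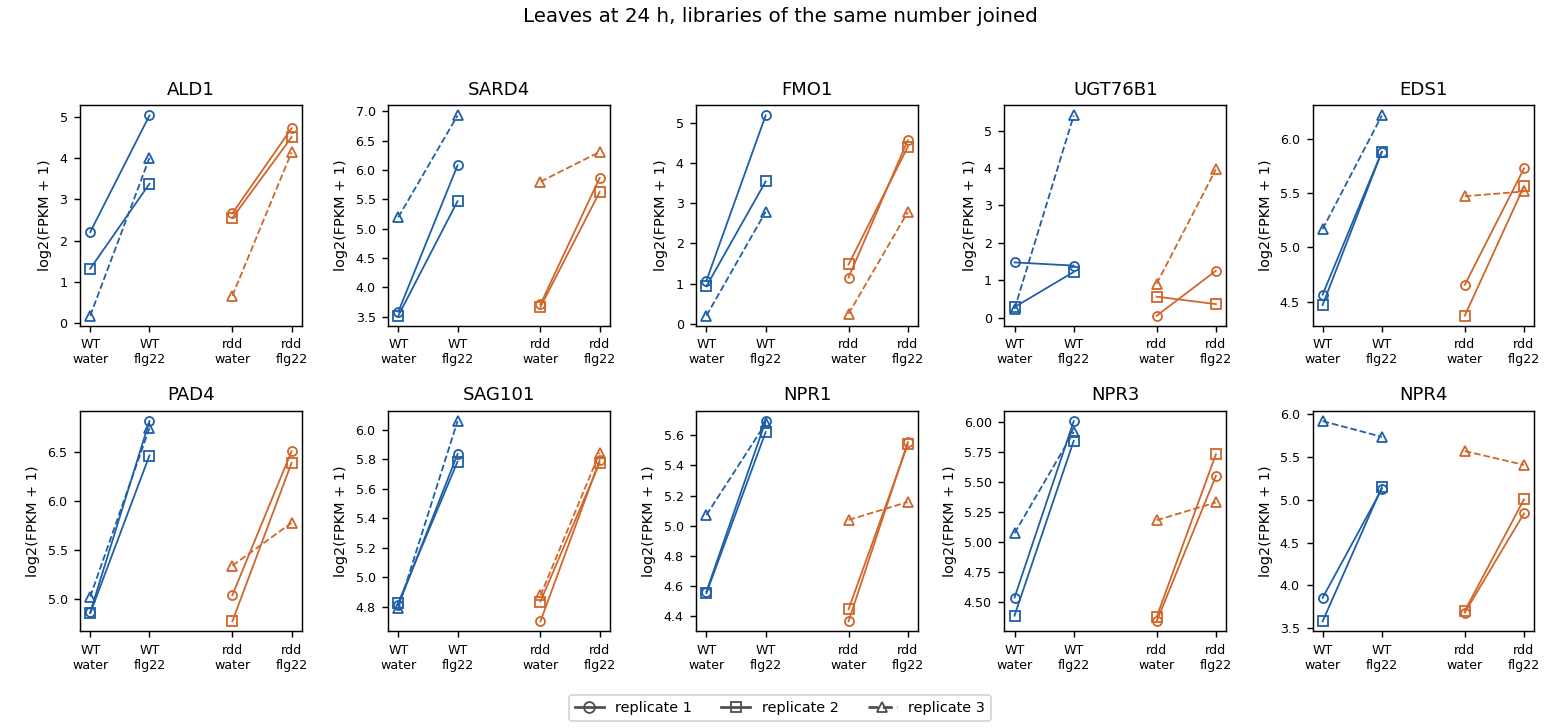
log2(FPKM + 1) of each gene (panels) in leaves at 24 h after water and flg22, libraries of the same number joined, WT in blue and rdd in orange; replicate 3 is dashed. Most lines rise; for UGT76B1 only the dashed lines reach above 2, and for NPR4 the dashed lines start high and fall slightly (-0.18 in WT and -0.16 in rdd).

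EDS1, the lipase-like hub of the family, responded quickly and briefly in seedlings. WT read 5.29, 9.53 and 6.98 FPKM at 0 h, 17.8, 23.6 and 13.8 at 1 h and 9.56, 10.9 and 11.2 at 3 h. The 1 h group was above both others. EDS1 rose by 1.23 ± 0.24 at 1 h (adjusted p = 0.00098). Its fall of 0.72 from 1 to 3 h had an adjusted p of 0.041, and 5 of the 6 fits that left out 1 library lost it, at adjusted p from 0.075 to 0.15 (all but the one without WT 1 h replicate 3).

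In rdd seedlings EDS1 read 6.19, 9.45 and 8.54 FPKM at 0 h, 24.3, 29.4 and 21.9 at 1 h and 6.02, 6.06 and 10.3 at 3 h. At 3 h, 2 libraries lay just below the lowest value at 0 h and 1 just above the highest. It rose by 1.54 ± 0.24 (adjusted p = 0.00011) and then fell by 1.66 (SE 0.24; adjusted p = 0.00013), and both calls held in all fits with 1 library left out. At 3 h against 0 h EDS1 was called in neither genotype (0.51 in WT and -0.12 in rdd).

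In leaves EDS1 went from 22.7, 21.1 and 35.0 FPKM after water to 58.1, 58.0 and 73.5 after flg22 in WT, without overlap, by 1.26 ± 0.28 (adjusted p = 0.010). In rdd it went from 24.2, 19.7 and 43.4 to 52.1, 46.3 and 44.8 FPKM. The rdd groups did not overlap, but the pair numbered 3 differed by 0.04 against 1.08 and 1.2 in the others. The change of 0.77 ± 0.28 was not called (adjusted p = 0.090), and it was called with the block (0.016). Without the libraries numbered 3 the changes were 1.37 in WT (adjusted p = 0.00052) and 1.14 in rdd (0.0011). After hrcC all libraries lay between 54.3 and 87.2 FPKM, with no call for pretreatment in either genotype (0.47 in WT and -0.17 in rdd).

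Reads of EDS1 may be shared with AT3G48080, a near-identical copy, so both levels are uncertain. AT3G48080 was at most 4.47 FPKM in seedlings, where EDS1 had its sharpest response. It averaged 12.0 FPKM in WT water leaves and 33.8 after flg22 (log2 change 1.76; adjusted p = 0.083, and 0.019 with the block).

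PAD4, which pairs with EDS1 and is needed for salicylic acid build-up, had the smallest adjusted p of the members in each of the 6 seedling time comparisons. WT read 6.55, 6.98 and 7.50 FPKM at 0 h, 23.4, 23.0 and 21.0 at 1 h and 14.9, 12.0 and 15.4 at 3 h. The 3 groups were separate. The change was 1.55 ± 0.15 at 1 h (adjusted p = 4.9e-07) and 0.91 ± 0.15 at 3 h (0.00026). rdd seedlings read 5.46, 7.34 and 6.27, then 31.7, 25.9 and 31.9, then 12.7, 12.0 and 16.2 FPKM. It rose by 2.07 ± 0.15 at 1 h (adjusted p = 1.3e-08) and was still higher at 3 h by 0.99 ± 0.15 (0.00016). From 1 to 3 h it fell by 0.64 in WT and by 1.08 in rdd. All 6 of these calls held with any 1 library left out.

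In leaves PAD4 read 28.2, 28.0 and 31.6 FPKM in WT after water and 111, 87.1 and 106 after flg22, a change of 1.76 ± 0.22 (adjusted p = 0.00060). In rdd it read 31.9, 26.4 and 39.5 and then 89.8, 82.7 and 53.8 FPKM, a change of 1.17 ± 0.22 (adjusted p = 0.0068). Neither pair of groups overlapped, and the smallest rise was in rdd pair 3, at 0.44. A fit of the rdd groups alone did not call it. Leaving out the libraries numbered 3 gave 1.78 in WT (adjusted p = 0.00043) and 1.54 in rdd (0.00083). After hrcC PAD4 was 76.2 and 94.4 FPKM in WT after water and 110.1 and 101 after flg22, and 76.9 and 60.7 and then 52.3 and 65.9 in rdd, with no call for pretreatment.

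SAG101, an EDS1 partner also known from leaf senescence, had the smallest SE of the leaf responses. WT read 27.0, 27.4 and 26.7 FPKM after water and 56.1, 54.1 and 65.7 after flg22, and rdd read 25.0, 27.5 and 28.4 and then 54.6, 53.8 and 56.5. All 6 numbered pairs rose, by 0.94 to 1.27. It rose by 1.09 ± 0.12 in WT (adjusted p = 0.00031) and 1.00 ± 0.12 in rdd (0.00092), and these held without any 1 library. With no library numbered 3 the rises were 0.99 (0.00053) and 1.02 (0.00062).

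SAG101 was the member with the highest level after hrcC. WT read 98.4 and 101 FPKM after water and 181 and 159 after flg22, a rise of 0.76 ± 0.11 (adjusted p = 0.0011). In rdd the values were 106 and 116 and then 130.5 and 149.9 FPKM, a rise of 0.33 ± 0.11 (adjusted p = 0.042). The groups did not overlap in either genotype. The rdd call was lost with the block (0.063) and without rdd water replicate 1 (0.18) or 2 (0.066) or rdd flg22 replicate 2 (0.22).

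In seedlings SAG101 went from 4.19, 7.04 and 5.57 FPKM to 25.5, 23.1 and 18.7 at 1 h and 9.74, 12.9 and 9.84 at 3 h in WT. In rdd it went from 3.68, 9.32 and 6.49 to 25.1, 32.3 and 19.6 and then 10.7, 5.66 and 10.8 FPKM. The 1 h groups stood clear of both others. The rise at 1 h was 1.84 ± 0.28 in WT (adjusted p = 0.00012) and 1.88 ± 0.28 in rdd (9.9e-05). It fell from 1 to 3 h by 0.99 in WT (adjusted p = 0.022) and by 1.43 in rdd (0.0027).

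The WT fall of SAG101 was lost without WT 1 h replicate 1 (adjusted p = 0.081) or 2 (0.052), or WT 3 h replicate 1 (0.071) or 3 (0.072). At 3 h against 0 h the rise in WT was 0.85 ± 0.28 (adjusted p = 0.044) and was lost without any 1 library except WT 0 h replicate 2 (adjusted p = 0.071 to 0.18). In rdd that comparison was not called (0.45; adjusted p = 0.29).

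NPR1, the salicylic acid receptor that activates defence genes, rose in seedlings of both genotypes. WT read 13.3, 13.4 and 14.8 FPKM at 0 h, 31.6, 32.7 and 24.8 at 1 h and 27.2, 25.0 and 17.4 at 3 h. All treated libraries exceeded all untreated ones. The changes were 1.04 ± 0.16 at 1 h (adjusted p = 0.00014) and 0.69 ± 0.16 at 3 h (0.0063). rdd seedlings read 11.01, 14.3 and 11.3, then 36.0, 35.6 and 34.4, then 17.1, 20.1 and 22.0 FPKM.

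The rdd changes of NPR1 were 1.47 ± 0.16 at 1 h (adjusted p = 3.0e-06) and 0.65 ± 0.16 at 3 h (0.011), the latter at 0.050 and not called without rdd 0 h replicate 3. From 1 to 3 h it fell by 0.82 in rdd (adjusted p = 0.0029), and the WT change of -0.36 was not called (0.14) except under median-ratio scaling.

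In leaves NPR1 read 22.6, 22.4 and 32.6 FPKM in WT after water and 50.8, 48.2 and 50.3 after flg22, a rise of 0.94 ± 0.21 (adjusted p = 0.011). In rdd it read 19.6, 20.8 and 31.8 and then 46.0, 45.5 and 34.7 FPKM, a rise of 0.80 ± 0.21 (adjusted p = 0.031). Water and flg22 groups were separate in both, with the rdd libraries numbered 3 closest to each other. The rdd call was lost without rdd water replicate 1 (adjusted p = 0.12) or 2 (0.10), without rdd flg22 replicate 1 (0.10) or 2 (0.11), and under median-ratio scaling. In the fit without the libraries numbered 3 NPR1 rose by 1.102 in WT (adjusted p = 0.00036) and 1.14 in rdd (0.00045).

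After hrcC NPR1 was lower with flg22 pretreatment by estimate. It read 56.4 and 60.1 FPKM in WT after water and 50.6 and 48.1 after flg22, not called at -0.23 ± 0.10 (adjusted p = 0.092). The rdd values were 57.4 and 48.9 and then 41.6 and 40.3 FPKM and fell by 0.36 (SE 0.10; adjusted p = 0.022). That call was lost without rdd water replicate 1 (0.12) or rdd flg22 replicate 1 (0.062) or 2 (0.097). NPR1 overlaps AT1G64270, which was at most 3.42 FPKM in any library.

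NPR3 and NPR4 encode the co-repressor receptors. NPR3 read 8.83, 11.6 and 10.8 FPKM in WT seedlings at 0 h, 22.9, 16.8 and 23.0 at 1 h and 18.4, 17.2 and 14.9 at 3 h. It rose by 0.94 ± 0.16 (adjusted p = 0.00037) and 0.65 ± 0.16 (0.0085), the latter lost without WT 0 h replicate 1 (0.053). rdd seedlings read 9.31, 11.5 and 12.0, then 22.3, 18.1 and 18.6, then 15.2, 19.9 and 16.4 FPKM. Treated and untreated libraries did not overlap in either genotype. The rdd rises were 0.79 ± 0.16 (adjusted p = 0.0017) and 0.60 ± 0.16 (0.017), the latter lost without rdd 3 h replicate 2 (0.069), the library that stood apart.

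In leaves NPR3 read 22.2, 19.9 and 32.7 FPKM in WT after water and 63.2, 56.3 and 59.3 after flg22, a rise of 1.25 ± 0.25 (adjusted p = 0.0061). The rdd values were 19.3, 19.8 and 35.3 and then 45.8, 52.0 and 39.2 FPKM, a rise of 0.90 ± 0.25 (adjusted p = 0.036). Again the pair numbered 3 was closest in rdd, at 0.15. The rdd call was lost without rdd water replicate 1 (0.13) or 2 (0.12), rdd flg22 replicate 1 (0.097) or 2 (0.13), and under median-ratio scaling. In the fit without the libraries numbered 3 the rises were 1.46 in WT (adjusted p = 0.00035) and 1.28 in rdd (0.00062).

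NPR3 had the smallest SE of the members in the priming set. WT read 50.3 and 50.7 FPKM after water and 45.6 and 48.7 after flg22, and rdd read 38.1 and 36.2 and then 54.5 and 54.1. In rdd it rose with flg22 pretreatment by 0.54 ± 0.08 (adjusted p = 0.0017), and in WT the value was -0.10 and not called. The difference between these responses, 0.64 ± 0.11, was not called over all genes (adjusted p = 0.12).

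NPR4 was the least abundant of the 3 NPR members in seedlings. WT read 3.58, 4.04 and 3.23 FPKM at 0 h, 5.11, 8.01 and 6.17 at 1 h and 6.87, 6.89 and 6.20 at 3 h. Treated libraries were all higher. The rises were 0.67 ± 0.17 (adjusted p = 0.0092; 0.055 without WT 1 h replicate 2) and 0.73 ± 0.17 (0.0052). In rdd the changes of 0.46 and 0.16 were not called (adjusted p = 0.076 and 0.56; 0.027 at 1 h without rdd 0 h replicate 2), and the difference between genotypes at 3 h, -0.58 ± 0.24, was not called either (0.56).

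In leaves NPR4 varied with the replicate number. WT read 13.5, 10.9 and 59.5 FPKM after water and 33.9, 34.4 and 52.3 after flg22, and rdd read 11.8, 12.0 and 46.5 and then 27.6, 31.1 and 41.5. The highest library of every group was the one numbered 3. The changes of 0.89 ± 0.64 and 0.77 ± 0.64 were not called (adjusted p = 0.37 and 0.47). Without the libraries numbered 3 they were 1.42 and 1.23 and were called in both genotypes (adjusted p = 0.00044 and 0.00084). After hrcC the values ran from 22.9 to 36.5 FPKM with no call.

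The question of the rdd comparisons was whether the demethylase mutant carries these genes at other levels. None of the members was called in the 7 comparisons of rdd with WT or in the 4 tests of a different flg22 response. Over all genes, limma called 0.323% (0.233% lower), 0.286% and 0.953% (0.551% lower) in seedlings at 0, 1 and 3 h, 0.0881% and 0.171% in water and flg22 leaves, and 0.945% and 2.08% in the water and flg22 priming groups. These numbers of genes were not stable when 1 library was left out. With 1 library left out, the 180 genes at 3 h became 1709 (1375 of them lower) without rdd 3 h replicate 3, and 65 to 83 without any 1 of the WT libraries or rdd replicate 1. The 61 genes at 0 h became 34 without WT replicate 3 and 40 without rdd replicate 3, and the 54 at 1 h became 29 without WT replicate 3 and 27 without rdd replicate 1. In water and flg22 leaves the 16 and 31 genes fell to between 2 and 10 and between 2 and 18, and in the priming groups the 168 and 370 fell to between 35 and 75 and between 74 and 204, each by more than 1.5 times whichever library was left out; the 74 came without WT replicate 1. For the differences in response it called 0.0106% and 0.00529% in seedlings at 1 and 3 h, 0% in leaves and 0.0956% in the priming set, where the 17 genes became 0 to 30 with 1 library left out, past 1.5 times in all 8 fits. Without the leaf libraries numbered 3, no member was called for water leaves, flg22 leaves or the leaf response either, where 0.145%, 0.19% and 0.0112% of all genes were. At an unadjusted p under 0.05 the members numbered 1, 1 and 0 of 9 in seedlings at 0, 1 and 3 h, 0 and 0 of 10 in leaves, and 2 and 5 of 10 in the priming groups. The same threshold was passed by 6.58%, 9.28% and 21.1% of all genes in seedlings, 1.93% and 3.86% in leaves, and 12.4% and 16.3% in the priming groups. For the differences in response the corresponding numbers were 1 and 1 of 9 in seedlings, 0 of 10 in leaves and 3 of 10 in the priming set, against 2.47%, 8.82%, 1.41% and 11.6% of all genes.

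The intervals show what these tests could miss, and come from the fit without the replicate block and with the libraries numbered 3. In flg22-treated leaves the difference of FMO1 was 0.08 with a 95% interval from -1.37 to 1.53, and that of UGT76B1 ran from -3.37 to 1.746. SAG101 was bounded more closely, from -0.35 to 0.17. Seedling differences at 0 h lay between -0.25 for FMO1 and 0.40 for NPR4, and at 3 h 8 of the 9 tested members were lower in rdd by estimate, the lowest being SARD4 at -0.59. The median of the 9 at 3 h was -0.18, against -0.14 over all genes tested, so that count is not a result about the members. For the difference in leaf response 0 of 10 were positive by estimate (median -0.378, against 0.073 over all genes tested). In the priming set 2 of 10 were (-0.448 against 0.044). In seedlings 7 of 9 were at 1 h (0.427 against 0.045) and 2 of 9 at 3 h (-0.044 against -0.198). For rdd against WT in flg22-treated leaves 2 of 10 were (-0.25 against 0.054). The members share libraries, and these directions were not tested.

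The smallest adjusted p values were in the leaves given hrcC. PAD4 was 110.1 and 101 FPKM in WT and 52.3 and 65.9 in rdd after flg22 and hrcC, a difference of -0.83 with a 95% interval from -1.22 to -0.45 (adjusted p = 0.053). NPR3 after water and hrcC was 50.3 and 50.7 FPKM in WT and 38.1 and 36.2 in rdd, a difference of -0.44 from -0.62 to -0.25 (adjusted p = 0.066). In each case the genotypes did not overlap, and neither passed the threshold with 2 libraries per group. ALD1 after water and hrcC was 3.13 and 2.13 FPKM in WT and 4.83 and 6.11 in rdd (0.84 ± 0.25; adjusted p = 0.24). The guard cell marker sum differed in the same comparisons, at 34.8 to 35.3 FPKM in WT and 62.8 to 65.0 in rdd after water, and its part was not tested.

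**Figure D4:**
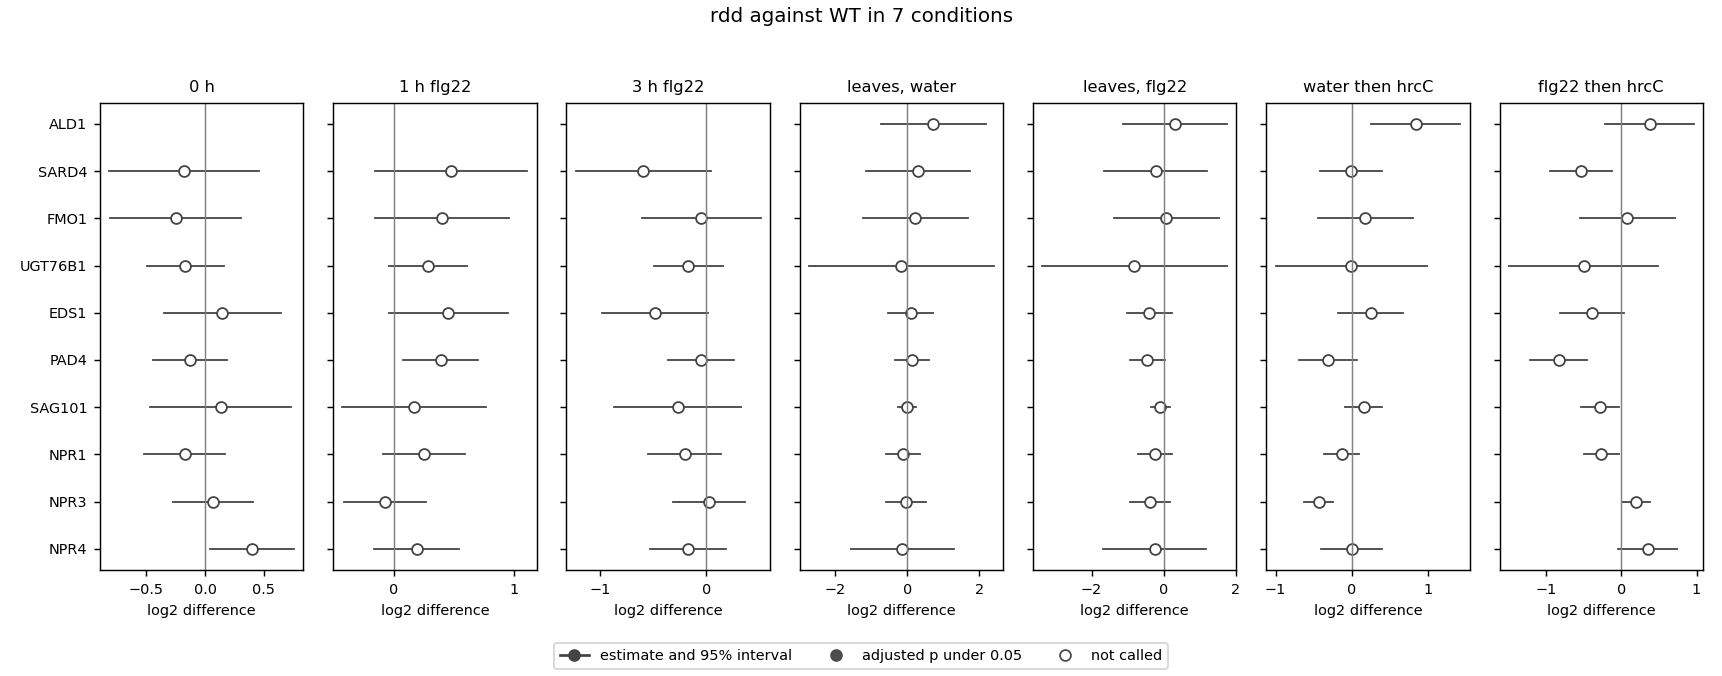
Log2 difference of rdd against WT (horizontal axes, FPKM + 1; each panel has its own range) with 95% intervals for each gene in 7 conditions. No point is filled, since none passed an adjusted p of 0.05; PAD4 lies at -0.83 in flg22 then hrcC leaves and NPR3 at -0.44 in water then hrcC leaves.

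Levels across the 14 groups gave each gene its own order. ALD1 and FMO1 had their 4 highest group means in the 4 groups given flg22 as leaves, and the fourth of these did not overlap the next group. EDS1, PAD4 and SAG101 had their highest mean in WT leaves given flg22 and then hrcC, at 84.3 ± 4.11, 105.4 ± 6.59 and 170.1 ± 15.2 FPKM (SD, n = 2). NPR1 was highest after water and hrcC in WT (58.2 ± 2.60 FPKM) and NPR3 and NPR4 in flg22-treated WT leaves (59.6 ± 3.44 and 40.2 ± 10.5 FPKM; n = 3). In most genes neighbouring groups overlapped: 13 of 13 neighbouring pairs for SARD4 and UGT76B1, 12 for ALD1 and FMO1, 11 for NPR4, 9 for EDS1, PAD4 and NPR1, and 7 for SAG101 and NPR3. Levels of leaves with and without hrcC come from separate sets, so set and hrcC cannot be told apart in this order.

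Pairs of members were compared by Pearson's r over the 14 group means, each centred on its set, as a description over groups that share libraries and controls. ALD1 and FMO1 were the most alike, at 0.97. Both were low in all seedling libraries (at most 0.78 and 2.51 FPKM), so values of r for these genes rest mostly on the leaf and priming groups. PAD4 and NPR1 stood at 0.96, EDS1 and SAG101 at 0.95, EDS1 and PAD4 at 0.91 and NPR3 and NPR4 at 0.89. UGT76B1 and ALD1 were at 0.35.

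**Figure D5:**
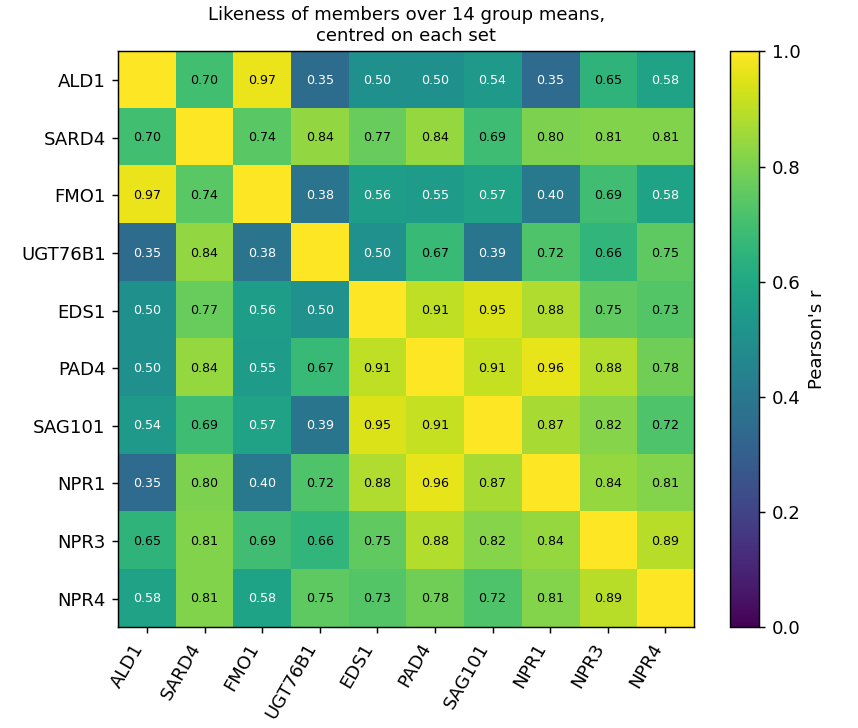
Pearson's r (colour and number) between members over 14 group means of log2(FPKM + 1), each centred on the mean of its set. ALD1 and FMO1 reach 0.97 and PAD4 and NPR1 0.96, and UGT76B1 and ALD1 are at 0.35.

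Among 16451 genes with a group mean of at least 5 FPKM, the same measure named the 3 genes most like each member. For ALD1 these were PGDH, EXT3 and NAC061 (0.98 each), and for FMO1 they were RLP49, ITPK4 and PRXCB (0.99). SARD4 was closest to IP5PII, ITN1 and SC3 (0.96 to 0.97), and UGT76B1 to AT5G61510, DWF5 and AT1G17610 (0.95 to 0.97). RHF1A was among the 3 closest to both EDS1 and SAG101, at 0.97 and 0.99. EDS1 was also close to AT5G52760 and CKX4, and SAG101 to AT2G19130 and 4CL1. PAD4 was nearest to AT1G67800, XLG2 and CPK5 (0.97 to 0.99), NPR1 to HR3, AT1G69730 and AT5G41750 (0.98), NPR3 to AT1G63720, SAR1 and AT3G63380 (0.95 to 0.96), and NPR4 to AT3G09100, SIB1 and AT4G34180 (0.92 to 0.97).

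The genes that surround the members in the pathway were described by 5 further lists, whose counts are read against the shares of all genes given above for each comparison. Those shares are without the replicate block. Counts with the block have no such share beside them and are not results about a list. Of 12 genes of salicylic acid synthesis and its regulators, 3 were called higher in WT seedlings at 1 h and 5 at 3 h, and 5 and 3 in rdd. With the block the rdd count at 3 h was 1. CBP60G, a transcription factor that activates ICS1, had the smallest adjusted p of the list at 1 h in both genotypes, going from 6.26 to 29.0 FPKM in WT (2.04 ± 0.18; adjusted p = 2.0e-07) and from 7.95 to 32.5 in rdd (1.90 ± 0.18). EDS5, the salicylic acid precursor exporter, rose at 1 h by 1.52 in WT and 2.36 in rdd. ICS1, the isochorismate synthase, came later, from 4.503 FPKM at 0 h and 3.29 at 1 h to 13.7 at 3 h in WT.

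In leaves 7 of the 12 were higher in WT and 8 in rdd, and with the block 9 and 8. Without the libraries numbered 3 the counts were also 9 and 8. ICS1 went from 16.5 to 83.3 FPKM in WT (2.28 ± 0.27; adjusted p = 0.00049), and PBS3, which conjugates isochorismate to glutamate, from 6.09 to 37.3 FPKM. In WT leaves given hrcC, 3 were higher and 4 lower with flg22 pretreatment, and in rdd 3 and 2, where 45.4% and 40.6% of all genes were called in either direction. ICS1 was 59.4 FPKM after water and 213 after flg22 in WT (1.83 ± 0.20) and 100.0 and 190.2 in rdd (0.88 ± 0.20).

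Helper receptors that act with the EDS1 complexes were listed with AT3G48080, 6 genes in all. ADR1-L1 and AT5G66900 rose in WT seedlings at 1 h, ADR1-L1 from 41.4 to 90.8 FPKM (1.11 ± 0.14; adjusted p = 9.5e-06). In leaves 5 of the 6 were higher in both genotypes, and 6 with the block or without the libraries numbered 3. ADR1, one of these helper receptors, went from 3.89 to 20.8 FPKM in WT (2.11 ± 0.29) and from 3.90 to 15.0 in rdd (1.76 ± 0.29). In the priming set ADR1 was the 1 of 6 called in WT (0.43), a call lost without any 1 of the 4 libraries (adjusted p = 0.066 to 0.18). In rdd ADR1 rose by 0.70 (adjusted p = 0.0058), and AT5G66900 and AT3G48080 fell by 0.52 and 0.56, both calls lost without replicate 1 of either group.

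Of 13 NPR paralogues and partners, TGA3, a transcription factor bound by NPR proteins, rose in seedlings at both times and in both genotypes, by 0.62 to 0.81. AT4G26120 went from 2.24 to 16.8 FPKM at 1 h in WT (2.46 ± 0.17; adjusted p = 6.6e-09) and back to 4.79 at 3 h. In leaves 6 of 12 tested were higher in WT and 4 in rdd, 9 and 8 with the block, and 10 and 8 without the libraries numbered 3. NIMIN2, a small NPR1-binding protein, went from 9.60 to 110.1 FPKM in WT (3.52 ± 0.53) and from 11.7 to 45.7 in rdd (2.14 ± 0.53), where the call was lost without replicate 1 or 2 of either group. NIMIN3 fell with flg22 pretreatment before hrcC, from 21.8 to 5.43 FPKM in WT and from 17.9 to 5.82 in rdd.

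The list of salicylic acid and lysine turnover held 10 genes. Of 9 tested in seedlings, 1 was higher and 2 lower in WT at 1 h, and 2 higher at 3 h. In rdd none was called at 1 h, and 1 was higher and 2 lower at 3 h. UGT74F2 went from 70.3 to 42.8 FPKM at 1 h in WT (-0.71 ± 0.12; adjusted p = 0.00028) and 128 at 3 h (0.86 ± 0.12; 5.5e-05). In rdd it went from 58.4 to 54.1 FPKM (not called) and 114 at 3 h (0.95 ± 0.12; 2.3e-05). LKR/SDH, the bifunctional enzyme of lysine breakdown, and so of the substrate of ALD1, fell by 1.53 at 1 h in WT seedlings (36.4 to 12.6 FPKM; adjusted p = 0.0042) and was 40.4 FPKM at 3 h. In rdd it went from 51.7 to 24.4 and 21.4 FPKM, not called at 1 h (-0.91; adjusted p = 0.089) and called lower at 3 h (-1.13; 0.034), a call lost in 4 of 6 fits with 1 library left out (0.089 to 0.17), all but those without rdd 0 h replicate 1 or rdd 3 h replicate 3. The difference between genotypes was called at neither time (0.62 and -1.27; adjusted p = 1.0 and 0.56). DMR6 and DLO1, the salicylic acid hydroxylases, rose in leaves, DMR6 from 52.1 to 457 FPKM (3.08 ± 0.22) and DLO1 from 11.5 to 198 (3.79 ± 0.66) in WT. Of the 8 genes of the list tested in leaves, 3 were higher in each genotype, and 4 with the block or without the libraries numbered 3. In the priming set DLO1 was higher in rdd than in WT after both water (26.3 against 9.15 FPKM; 1.43 ± 0.18, adjusted p = 0.019) and flg22 (203.5 against 91.4; 1.18 ± 0.18, adjusted p = 0.024). The first call was lost without any 1 of its 4 libraries (adjusted p = 0.085 to 0.13), and the second without any 1 but WT replicate 2 (0.066 to 0.095). BSMT1, which methylates salicylic acid, was 10.5 FPKM in rdd and 0.33 in WT after flg22 and hrcC (3.12 ± 0.24; adjusted p = 0.0016), and its response to pretreatment differed between genotypes (3.07 ± 0.34; adjusted p = 0.038). That difference was lost in all 6 fits with 1 library left out in which BSMT1 could be tested (adjusted p = 0.065 to 0.15). Without either rdd flg22 library the gene fell below the filter, so neither of these calls was checked there.

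A list named salicylic acid outputs held 12 genes. Not all of them are outputs of salicylic acid, since AZI1 and DIR1 encode lipid transfer-type proteins of systemic signalling. Salicylic acid itself was not measured here. Of the 8 tested in seedlings, none was called at 1 h against 0 h in either genotype. At 3 h against 0 h, 3 were higher in each, and 2 in rdd with the block. AZI1 had the smallest adjusted p, going from 349 to 3131 FPKM in WT (3.145 ± 0.363; 7.2e-06) and from 298 to 2372 in rdd (3.138 ± 0.363; 1.0e-05). PR1, the classical marker of salicylic acid signalling, went from 44.7 to 10480 FPKM in WT leaves (8.19 ± 0.65; adjusted p = 9.6e-05) and from 138 to 8138 in rdd (5.90 ± 0.65). In leaves 7 of 12 were higher after flg22 in WT and 5 in rdd, 12 and 8 with the block, and 12 and 9 without the libraries numbered 3. For rdd against WT none of the 8 tested in seedlings at 0, 1 or 3 h and none of the 12 in water or flg22 leaves at 24 h was called, with or without the libraries numbered 3. After water and hrcC, 5 of the 12 were higher in rdd than in WT, and after flg22 and hrcC 2 were higher and 1 lower, each of those 3 calls being lost in 3 or 4 of 4 fits with 1 library left out. The lists and the members were not tested against each other. PR1 was 229.6 FPKM in rdd and 49.95 in WT (2.17 ± 0.18; adjusted p = 0.0023), PNP-A 64.7 and 28.0 (1.19 ± 0.13; 0.0087) and PR2 929.5 and 323 (1.52 ± 0.21; 0.024). The PR1 call held without any 1 library, that of PNP-A was lost without any 1 but WT replicate 1, and that of PR2 without any 1 of the 4. With flg22 pretreatment 7 were higher and 1 lower in WT and 9 higher in rdd, where 45.4% and 40.6% of all genes were called. The PR1 response was smaller in rdd, at -2.73 ± 0.25 (adjusted p = 0.026), and this was lost in 6 of 8 fits with 1 library left out, all but those without replicate 2 of either rdd group (adjusted p = 0.063 to 0.12).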

How the data were processed

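HISAT2, featureCounts, DESeq2 and TAIR10 are named, with no role or version, per the submitters' processing notes. The table names no unit. Its deposited values were read as FPKM from their totals (904625 to 1231239 per library) and decimals, which is an inference. The values keep 2 decimals, whole-read steps could not be recovered, and the sequencing depth is unknown. Seedlings (18 libraries), leaves (12) and the priming set (8) were fitted separately, since only groups within a set share controls.

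Genes with at least 1 FPKM in 3 libraries (2 in the priming set) were kept. limma 3.58.1 (R 4.3.3) was run on log2(FPKM + 1), with 1 mean per group, a trend and robust moderation, and p-values were adjusted by Benjamini and Hochberg over 18886, 18164 and 17780 genes. The 10 members and all lists were chosen with earlier results of these data known, so no list is independent evidence. Named genes were the members, the 3 demethylase genes, up to 3 called genes per list and comparison by smallest adjusted p, and the 3 genes most like each member. The scripts were tested on simulated data.

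In leaves, deviations from the group means correlated above 0.1 in all 18 same-number pairs (lowest 0.251, median 0.613). Pairs of different numbers did so in 12 of 36 (median -0.512, highest 0.718). WT water replicate 1 reached 0.718 with rdd water replicate 2 and 0.696 with rdd water replicate 1. The numbers therefore set the libraries numbered 3 apart, and do not show that 1 and 2 are each paired across groups. The blocked value is therefore given beside leaf results whose call it changes. Names came from an annotation of assembly TAIR10.1, so no coordinates are given, and no sequences were used here. The series table and 38 single-library files held the same values. Alternatives were another pseudocount (0.1), no filter, median-ratio scaling, no organelle genes, no trend, the compared groups alone, the replicate block, and each library left out; leaving out the leaf libraries numbered 3, with the filter at 2 libraries, was added after seeing the data.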

Additional observations from a re-analysis of the deposited data

How the results depend on the processing

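Of 2717 refitted values of single members, 2621 stayed on the same side of the threshold, 80 lost a call and 16 gained one. Direction was compared only where the main fit or the refit was called, and none of those values reversed. Counts of called members that moved by more than 1.5 times were the following. With the compared groups alone, rdd seedlings at 3 h against 0 h gave 1 (4 in all groups), rdd leaves 2 (6), WT priming 5 (3) and rdd priming 3 (6), where fewer samples set the spread. Median-ratio scaling gave 3 in rdd leaves. With 1 library left out, the counts ranged from 5 to 6 in WT seedlings at 1 h, 4 to 6 at 3 h, and 1 to 3 for 3 h against 1 h (main count 4). In rdd seedlings they ranged from 6 to 8 at 1 h, 3 to 4 at 3 h and 4 to 5 for 3 h against 1 h. They were 7 to 8 in WT leaves, 2 to 7 in rdd leaves, 3 in WT priming and 3 to 5 in rdd priming (6), and 0 in every rdd comparison with WT and every difference in response. In the priming set a group with 1 library left is assumed to vary like the others. The cause was not tested.

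In seedlings and the priming set the replicate numbers did not pair the samples: correlations of same-numbered libraries were above 0.1 in 10 of 45 and 4 of 12 pairs. The replicate block left the seedling counts at 6, 6, 4, 7, 4 and 4 and WT priming at 3, and gave 4 in rdd priming (6 without it), 8 in WT leaves and 8 in rdd leaves (6 without it). It changed no other member call, and the shares of all genes given above are without the block. Median-ratio scaling put the higher share of all genes called for rdd against WT at 15.3% instead of 27.9% in seedlings at 0 h, 26.7% instead of 42.6% at 1 h and 38.1% instead of 25.0% in water leaves. Depth is unknown, so no limit from counting can be given.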
